A study of Rattus norvegicus with 9 samples.

Results

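The miR-106b/93/25 cluster is a set of 3 microRNA (miRNA) hairpins transcribed together, from which 6 mature miRNAs are named: the 3p and 5p arms of miR-25, miR-93 and miR-106b. The 6 were taken by name from the deposited count matrix, and all 6 were found among its 567 miRNAs. Serum small RNA was sequenced from adult male wild-type Wistar rats in 9 libraries, 3 in each of 3 groups. The early group (EPD) received rotenone, an inhibitor of mitochondrial complex I used to model Parkinson's disease, given daily and intraperitoneally (2 mg/kg) over 10 days. The late group (LPD) received the same dose for more than 40 days, to the terminal stage, and the remaining animals were controls (Control). All 9 samples carry the same treatment label, which leaves the injection given to controls unnamed. Serum holds miRNAs released by many cell types, so a lower level cannot be told apart into fewer contributing cells and less miRNA released per cell.

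A miRNA hairpin is cut by Drosha and Dicer into a duplex, and 1 strand is usually retained by an Argonaute protein while the other, the passenger, is mostly degraded. The retained strand finds its targets mainly through its seed, bases 2 to 8 from the 5′ end, so that miRNAs with the same seed share many targets. The cluster is hosted in an intron of Mcm7, a replicative helicase gene driven by E2F, and is a paralog of the miR-17/92 and miR-106a/363 clusters. These clusters are known for restraining the cell cycle inhibitor p21 and the proapoptotic protein BIM, and they are abundant in blood-forming cells.

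The 6 mature miRNAs lie within 472 bases on the minus strand of chromosome 12 (chr12:22156652-22157123 in the RefSeq table for build GRCr8), inside the Mcm7 gene of the same assembly. The submitters' processing notes name mRatBN7.2, and no coordinate of that build is used here. All 6 members had a mature sequence in the RefSeq table, of 21 to 23 bases, so their counts are compared without a correction for length. The sequences are shown because the counts separate miRNAs that differ by few bases. In each, capitals mark the seed. The first 2 below are cluster members with the seed AAAGUGC, and the next 3 are their relatives from the paralogous clusters.
miR-93-5p: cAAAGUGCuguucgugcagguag
miR-106b-5p: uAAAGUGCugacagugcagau
miR-17-5p: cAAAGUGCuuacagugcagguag
miR-20a-5p: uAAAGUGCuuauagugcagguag
miR-20b-5p: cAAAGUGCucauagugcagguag
Over the first 21 bases miR-106b-5p differed from miR-17-5p and from miR-20a-5p at 3 positions each, and miR-93-5p differed from miR-20b-5p at 3. How the authors' counting assigned reads with errors or trimmed ends among these names is not given in the sources used here, so the counts of miR-106b-5p and its relatives are uncertain to that extent.

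miR-25-3p carries the seed AUUGCAC and shares it with miR-92a-3p, from which it differed at 3 of 21 bases, and with miR-92b-3p, miR-363-3p and miR-32-5p. These 2 are printed because their ratio differed between the groups.
miR-25-3p: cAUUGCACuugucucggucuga
miR-92a-3p: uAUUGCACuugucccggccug
The remaining 3 arms have seeds of their own, which no other mature rat miRNA in the RefSeq table carries.
miR-106b-3p: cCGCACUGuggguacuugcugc
miR-93-3p: aCUGCUGAgcuagcacuucccga
miR-25-5p: aGGCGGAGacacgggcaauugc
In the hairpins of miR-25 and miR-93 both arms are in capitals, the 5p arm first. The hairpins are shown because the abundant arm lies on opposite sides of the loop.
Mir25: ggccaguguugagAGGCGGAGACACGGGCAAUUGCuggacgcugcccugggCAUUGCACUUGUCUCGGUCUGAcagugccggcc
Mir93: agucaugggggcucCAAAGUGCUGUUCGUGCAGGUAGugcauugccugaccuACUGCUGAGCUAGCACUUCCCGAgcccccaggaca

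Depth differed sharply between the groups. The Control and EPD libraries held 1108167 to 1668807 counts and the LPD libraries 132609 to 305019. From the number of miRNAs without counts, and on the assumption that LPD serum had the mean profile of the other libraries, 4279 to 10755 molecules stood behind each LPD library, or 12.3 to 49.1 counts per molecule. In Control and EPD the same estimate gave 1.01 to 2.74 counts per molecule. In LPD 3 estimated molecules stood for 244 to 662 CPM (counts scaled to a common library total with edgeR's TMM factors), and members below that level cannot be measured there. Control 2 stood apart by its hepatocyte miRNAs (summed level of the 5 markers 697423 CPM, against 29555 and 56472 in the other controls), and results are given without it where it matters.

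miR-25-3p and miR-93-5p made up nearly all of the cluster in serum, with 98.3 ± 0.76% of its counts (mean ± SD, n = 9 libraries). miR-25-3p ranked between 10 and 27 by counts in the 9 libraries and miR-93-5p between 14 and 34. miR-25-3p had 11586, 9691 and 11859 CPM in Control, 29712, 12846 and 12929 CPM in EPD, and 11441, 8319 and 6738 CPM in LPD. All 3 EPD libraries lay above all controls, but 2 of them only narrowly, and EPD 1 stood far above the rest. miR-93-5p had 6516, 6477 and 8781 CPM in Control, 18380, 10069 and 9599 CPM in EPD, and 6287, 6884 and 4523 CPM in LPD. It showed the same order, again with EPD 1 highest and with LPD overlapping Control.

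The third abundant arm, miR-106b-3p, was far lower. It had 237, 155 and 220 CPM in Control, 452, 157 and 151 CPM in EPD, and 225, 549 and 231 CPM in LPD. The groups overlapped, and in each of the rotenone groups a single library stood apart, EPD 1 and LPD 2. The LPD values correspond to 68, 122 and 35 counts, or an estimated 1.85, 2.49 and 2.84 molecules, so its level in LPD rests on very few molecules.

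The lesser arms, among them miR-106b-5p, were scarce. miR-93-3p had 36.6, 53.7 and 51.4 CPM in Control and 86.1, 52.4 and 49.0 CPM in EPD, and no count in any LPD library. miR-25-5p had 14.7, 31.9 and 27.7 CPM in Control, 44.4, 20.0 and 28.3 CPM in EPD, and 4 counts in LPD, all in LPD 3. miR-106b-5p had 38.3, 19.2 and 41.0 CPM in Control and 45.8, 24.7 and 27.6 CPM in EPD, with a single count in LPD, in LPD 2. For all 3 arms EPD overlapped Control with EPD 1 highest, and the LPD levels lay below what the LPD libraries could resolve.

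**Figure D1:**
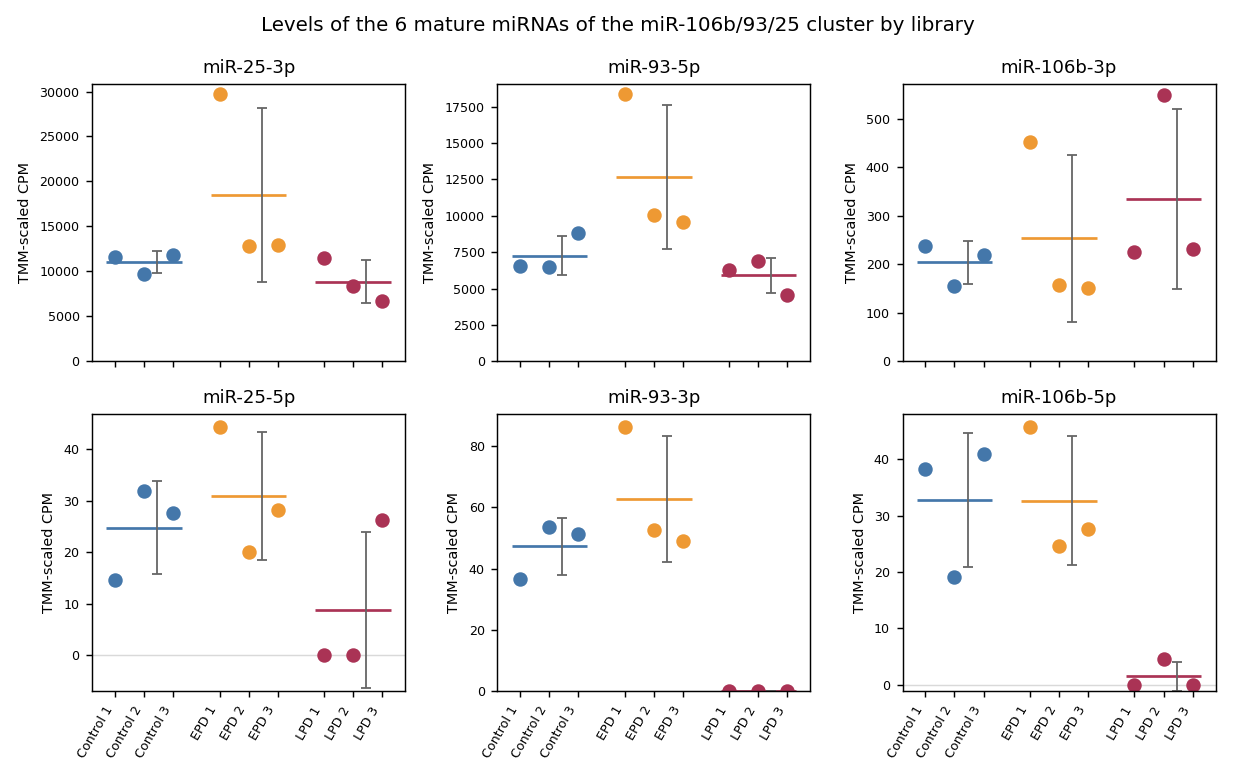
Each panel plots 1 mature miRNA, with the TMM-scaled CPM on the y axis (linear, a scale of its own in each panel) and the 9 libraries on the x axis; horizontal lines are group means and grey bars the SD over n = 3. EPD 1 is the highest EPD library for all 6, and miR-93-3p sits at 0 in all 3 LPD libraries.

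After 10 days of rotenone no member passed the test, as none of the 294 tested miRNAs did (0% called, 11 or 3.74% at an unadjusted p under 0.05). The fitted log2 fold change of EPD against Control was 0.81 (SE 0.32, adjusted p = 0.995) for miR-93-5p and 0.74 (SE 0.37, adjusted p = 0.995) for miR-25-3p, with edgeR's quasi-likelihood test adjusted over all miRNAs. These 2 were the only members whose 3 EPD libraries all lay above the 3 controls, as did 4.76% of the miRNAs tested. Without EPD 1 the values were 0.51 and 0.30. The median over the 6 members was 0.36, against -0.05 over all 294. For the other members the log2 changes were 0.40 (SE 0.66) for miR-93-3p, 0.32 (SE 1.01) for miR-25-5p, 0.31 (SE 0.63) for miR-106b-3p and -0.01 (SE 0.69) for miR-106b-5p. Their errors are as large as or larger than the values, and the data do not tell a rise from a fall. miR-106b-3p stood at -0.33 without EPD 1.

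EPD 1 was also the library with the highest level of red cell miRNAs among Control and EPD. The 5 red cell markers in the table, which are miR-16-5p, miR-486, miR-451-5p, miR-144-5p and miR-144-3p, summed to 394876 CPM in EPD 1, against 163423 and 153209 CPM in the other EPD libraries and 84573 to 169287 CPM in Control. Most of the sum was miR-16-5p, which many cell types express (351656 CPM in EPD 1). In LPD the sum was 236026 to 372968 CPM, above every control, while the cluster's summed level was 11518 to 17953 CPM against 16427 to 20980 CPM in Control. All 5 markers were detected in each group. The erythroid miR-451-5p was 2916 CPM in EPD 1 and 414 and 787 CPM in the other EPD libraries, and its 756 to 1530 CPM in LPD overlapped the 466 to 799 CPM of Control. Its log2 change was 1.13 (SE 0.67, adjusted p = 0.995) in EPD against Control and 0.86 (SE 0.67, adjusted p = 0.357) in LPD against Control. Of the other markers miR-486 was called higher in LPD against Control (2.18, SE 0.65, adjusted p = 0.0264 by edgeR), as were 4.42% of the miRNAs tested. miR-144-3p (2.28, adjusted p = 0.0511) and miR-16-5p (1.14, adjusted p = 0.0660) did not pass, though their LPD libraries lay above all controls. miR-144-5p overlapped Control (0.62, adjusted p = 0.631). The part of red cell material in the cluster's level was not tested. miR-23a-3p, often used as a stable reference beside miR-451-5p, had a log2 change of -0.07 (SE 0.29, adjusted p = 0.995) in EPD against Control and 0.07 (SE 0.29, adjusted p = 0.851) in LPD against Control.

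As a share of all miRNA counts, the cluster took 2.04, 1.1 and 2.36% in Control, 4.27, 2.65 and 2.26% in EPD and 1.78, 1.67 and 1.32% in LPD. Wilson 95% intervals reached at most 0.0628 percentage points from these values, and they cover only the counting error of reads taken as independent. In LPD, at an estimated 12.3 to 49.1 counts per molecule, they are too narrow if that estimate holds. EPD exceeded Control by 1.23 percentage points (exact two-sided permutation p = 0.2, adjusted over 3 tests 0.3), and the groups overlapped because of Control 3. LPD lay below EPD by 1.47 points without overlap (exact permutation p = 0.1, adjusted 0.3), where 0.1 is the smallest p that 3 libraries against 3 allow. LPD and Control overlapped (difference -0.25 points, exact permutation p = 0.5). Without EPD 1 the first difference was 0.62 points and that of LPD from EPD -0.87 points. Leaving out Control 2 moved LPD against Control to -0.61 points. Control 2 had the lowest share of all libraries, and miR-122-5p alone took 518364 of its 1171056 counts, which widened the difference of EPD from Control. With any 1 library left out that difference ranged from 0.62 to 1.63 points.

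**Figure D2:**
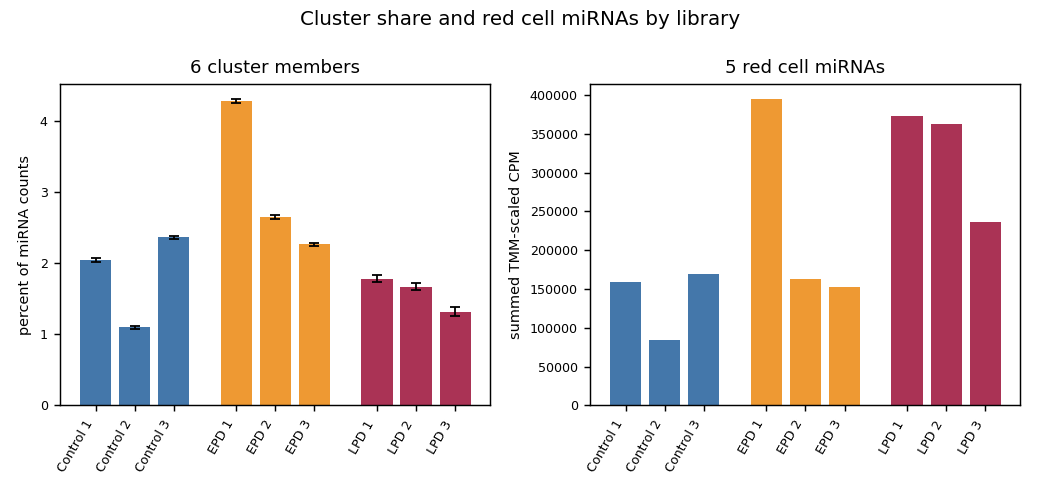
The left panel shows the 6 members' summed share of all miRNA counts in percent, and the right panel the summed TMM-scaled CPM of 5 red cell miRNAs, both by library. Error bars are Wilson 95% intervals that take reads as independent, which the reads of LPD may not be. EPD 1 is the highest in both panels. The LPD libraries lie above every control on the right, and on the left they lie below EPD and overlap Control.

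In the LPD libraries the cluster's 2 most abundant miRNAs stood below their EPD levels. miR-93-5p fell 2.15-fold against EPD (log2 fold change -1.104, SE 0.32, adjusted p = 0.0256 by edgeR). miR-25-3p had nearly the same change and did not pass (-1.07, SE 0.38, adjusted p = 0.0520), with a change of -0.46 (adjusted p = 0.316) without EPD 1 and adjusted p-values of 0.0376 each without EPD 2 or without EPD 3. In both, all 3 LPD libraries lay below all 3 EPD libraries, as they did for 4 of the 6 members and for 45.6% of the miRNAs tested. Of the 294 miRNAs 108 (36.7%) were called in this comparison and 96 (32.7%) were called lower. The 3 called members of 6, all lower, do not set the cluster apart from that background, which includes miRNAs without counts in LPD. Among the 124 miRNAs with counts in all 9 libraries the median log2 change was -0.09, against -1.10 for miR-93-5p and -1.07 for miR-25-3p. That set leaves out miRNAs without counts in some LPD library, which raises its median. Over all 294 the median was -0.92. In a fit of those 124 alone 18 were called lower, and no member was called. The call of miR-93-5p is not firm: it was lost in 12 of 18 alternatives, over which the adjusted p ranged from 0.0241 to 0.229, the latter without EPD 1 (log2 fold change -0.63). It was also lost without Control 2 (adjusted p = 0.0717), LPD 1 (0.111), LPD 2 (0.0505) or LPD 3 (0.126).

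The other 2 called members in LPD against EPD were miR-93-3p (adjusted p = 0.00576) and miR-106b-5p (adjusted p = 0.0110). Both were also called lower in LPD against Control (adjusted p = 0.00522 and 0.0102), where they were the only called members, beside 109 of 294 miRNAs (37.1%) called and 96 (32.7%) called lower. These 2 were also the only members whose LPD libraries all lay below the controls, as did 41.8% of the miRNAs tested. Both passed the count filter only through Control and EPD. At the depth of LPD their calls were therefore close to fixed in advance and do not show a fall. No fold is given for miR-93-3p, which had no count in LPD and whose Control mean of 47.2 CPM lay below the 244 CPM of 3 estimated molecules in the best resolved LPD library. For miR-106b-5p the ratio of count shares, LPD over Control, was 0.0443 (exact 95% interval 0.00111 to 0.251, from 1 count against 133), and for miR-25-5p 0.259 (0.0692 to 0.687, from 4 against 91). These intervals pool the libraries of a group, so they leave out the spread between libraries. They also treat reads as independent, which the reads of LPD may not be. In the fit miR-25-5p was not called in LPD against Control (log2 change -1.75, SE 1.24, adjusted p = 0.318 by edgeR), and its groups overlapped. With counts divided by the estimated counts per molecule no member was called.

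Against Control, the 3 abundant arms in LPD did not pass. The log2 changes were -0.30 for miR-93-5p (SE 0.32, adjusted p = 0.509), -0.32 for miR-25-3p (SE 0.37, adjusted p = 0.543) and 0.72 for miR-106b-3p (SE 0.64, adjusted p = 0.419). The 2 negative values turned to 0.10 and 0.05 without LPD 3. Among the 124 miRNAs with counts in all 9 libraries the median was -0.21, so miR-93-5p and miR-25-3p stood near the middle of that set. The set leaves out miRNAs without counts in some LPD library, and over all 294 the median was -1.04. Because LPD, EPD and Control each enter 2 of the 3 comparisons, these values are not independent of each other.

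The 2 most abundant members kept a narrower ratio to each other over the 9 libraries than miR-25-3p kept to miR-106b-3p. The ratio of miR-93-5p to miR-25-3p counts, which does not depend on library scaling, was 0.562, 0.668 and 0.740 in Control, 0.619, 0.784 and 0.742 in EPD, and 0.550, 0.827 and 0.671 in LPD. The groups overlapped throughout, and over the 9 libraries the ratio varied 1.51-fold while the cluster's share of counts varied 3.89-fold. The lowest share was that of Control 2, and as TMM-scaled CPM the cluster varied 4.23-fold. Within LPD the ratio varied 1.51-fold and the share 1.35-fold, so the ratio varied more than the share there. The ratio of miR-25-3p to miR-106b-3p varied 5.64-fold. miR-25-3p exceeded miR-106b-3p 48.9 to 62.7-fold in Control, 65.8 to 85.4-fold in EPD and 15.2 to 50.8-fold in LPD, where few molecules of miR-106b-3p were seen. This ratio was higher in each EPD library than in any control.

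Likeness of profiles was measured as the root mean square (RMS) difference of log2 CPM over the 9 libraries, each profile centred on its own mean, among miRNAs with counts in every library and a mean of at least 50 CPM. Of 122 others, miR-93-5p was the nearest to miR-25-3p and miR-25-3p the nearest to miR-93-5p, with an RMS difference of 0.20, against a median of 0.92 over the 122. Over Control and EPD alone each was the second nearest to the other. Next came let-7g-5p (0.26) and let-7i-5p (0.35) for miR-25-3p, and let-7i-5p (0.30) and let-7g-5p (0.32) for miR-93-5p, all from the let-7 family of differentiation-associated miRNAs. Without LPD these let-7 miRNAs stood at ranks 7 to 10. For miR-106b-3p the nearest were miR-16-5p (0.44), miR-15a-5p (0.45) and miR-375-3p (0.46), which stood at ranks 8, 23 and 28 without LPD, so that these neighbours rest on libraries with few molecules of miR-106b-3p. miR-93-5p came at rank 27 and miR-25-3p at rank 30 of 122. Over Control and EPD alone miR-25-3p was the second nearest to miR-106b-3p (0.29), while miR-93-5p was at rank 16 (0.42).

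The arm with more counts in serum was not on the same side in all 3 hairpins, and strand retention itself was not measured. In Control and EPD miR-25 came mostly from its 3p arm, with 123110 counts against 227 of the 5p arm, a ratio between 303 and 790 over the 6 libraries. miR-93 came mostly from its 5p arm, with 83542 counts against 448, a ratio between 121 and 213.5. miR-106b was the least one-sided, with 1899 counts of the 3p arm against 276 of the 5p arm, a ratio between 5.37 and 9.87. The 3p arm of miR-106b thus exceeded the arm that carries the AAAGUGC seed in each of these 6 libraries.

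On the log2 scale, with 0.5 counts added to each arm, the ratio of 3p to 5p for miR-25 was 8.84 ± 0.69 in Control and 9.16 ± 0.30 in EPD (SD, n = 3; exact permutation p = 0.6, adjusted over 9 tests 0.6). For miR-106b it was 2.67 ± 0.28 and 2.80 ± 0.44 (exact permutation p = 0.6, adjusted 0.6). For miR-93 it was -7.26 ± 0.31 in Control and -7.64 ± 0.08 in EPD, a difference of -0.38 in which the groups did not overlap (exact permutation p = 0.1, adjusted 0.18). miR-93-5p counts exceeded those of miR-93-3p by 178, 121 and 171-fold among controls, and by 213.5, 192 and 196-fold after early rotenone. The difference rested partly on Control 2, without which it was -0.20.

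In LPD the arm ratios could not be resolved. With 0.5 counts added, the log2 ratio of miR-93 was -11.30 ± 0.77 in LPD, 4.04 below Control, and that of miR-106b was 6.53 ± 0.50, 3.87 above Control (exact permutation p = 0.1 each, adjusted 0.18). For miR-25 it was 10.81 ± 2.62, against 8.84 in Control (exact permutation p = 0.4, adjusted 0.51). At the arm ratios of Control and EPD, the lesser arm would have given 1.88 to 6.37 counts per LPD library for miR-25, 3.68 to 10.2 for miR-93 and 5.09 to 17.7 for miR-106b. In estimated molecules that is 0.0695 to 0.174, 0.167 to 0.298 and 0.269 to 0.413, under 1 molecule in every LPD library. When 0.5 was added to estimated molecules in place of counts, all 6 arm ratio differences that involve LPD changed sign.

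**Figure D3:**
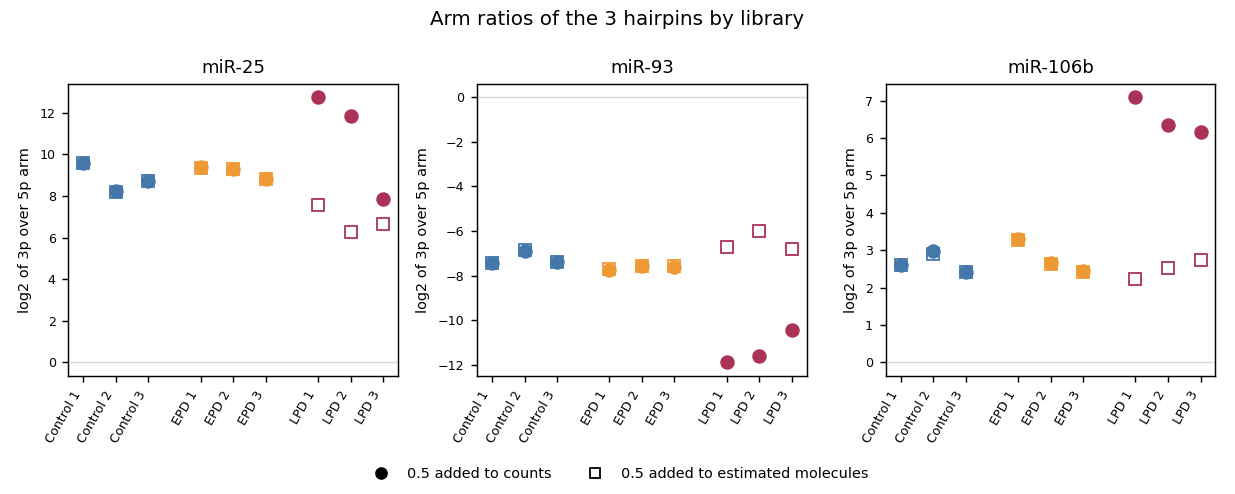
For each hairpin the log2 ratio of the 3p to the 5p arm is plotted by library, with 0.5 added to the counts (filled circles) or to the estimated molecules (open squares). Circles and squares coincide closely in Control and EPD and part in all 3 LPD libraries, where 1 arm had no count in any but miR-25 in LPD 3 and miR-106b in LPD 2.

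The relatives, a list of 14 miRNAs from the paralogous clusters and the same seed families, were counted in the same fit. All 14 were in the table and 10 could be tested. None passed in EPD against Control, where 3 of the 10 had positive and 7 negative log2 changes (median -0.17, against -0.05 over all miRNAs). In LPD, 1 was called higher and 1 lower, against Control and against EPD alike, beside 4.42 and 4.08% of all miRNAs called higher and 32.7% called lower in each. The list did not hold 3 further tested arms of the same clusters, miR-17-2-3p, miR-18a-3p and miR-92a-1-5p, which were added after their values were seen. All 3 had no count in LPD, at most 65 counts in any other library, and were called lower in both LPD comparisons, which makes 1 higher and 4 lower of 13 tested. They passed the count filter only through libraries outside LPD, so these calls do not show a fall. None of the 3 was called in EPD against Control. The rise was that of miR-92a-3p, which shares the seed of miR-25-3p and is encoded at 2 loci. It had 2355, 1897 and 2163 CPM in Control, 3145, 1804 and 2165 CPM in EPD, and 6489, 8125 and 3474 CPM in LPD (LPD against Control 1.496 on the log2 scale, SE 0.36, adjusted p = 0.0102, and against EPD 1.35, SE 0.36, adjusted p = 0.0171). All LPD libraries lay above all others.

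miR-19b-3p, a member of miR-17/92 whose seed is not among those of the cluster, fell in LPD against EPD (-1.36, SE 0.31, adjusted p = 0.00926) and against Control (-1.57, SE 0.31, adjusted p = 0.00550). The AAAGUGC relatives did not pass in LPD against EPD. miR-20a-5p stood at 0.68 (SE 0.53, adjusted p = 0.374), miR-17-5p at -1.86 (SE 1.14, adjusted p = 0.244) and miR-20b-5p at -2.53 (SE 1.41, adjusted p = 0.209). In LPD miR-17-5p had 29, 0 and 15 counts and miR-20b-5p 0, 0 and 7, below what those libraries could resolve. miR-93-5p was the most abundant of its seed family, and together with miR-106b-5p it held 89.1 ± 2.48% of that family in Control, 94.0 ± 1.41% in EPD and 87.2 ± 6.52% in LPD (of counts, SD, n = 3).

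**Figure D4:**
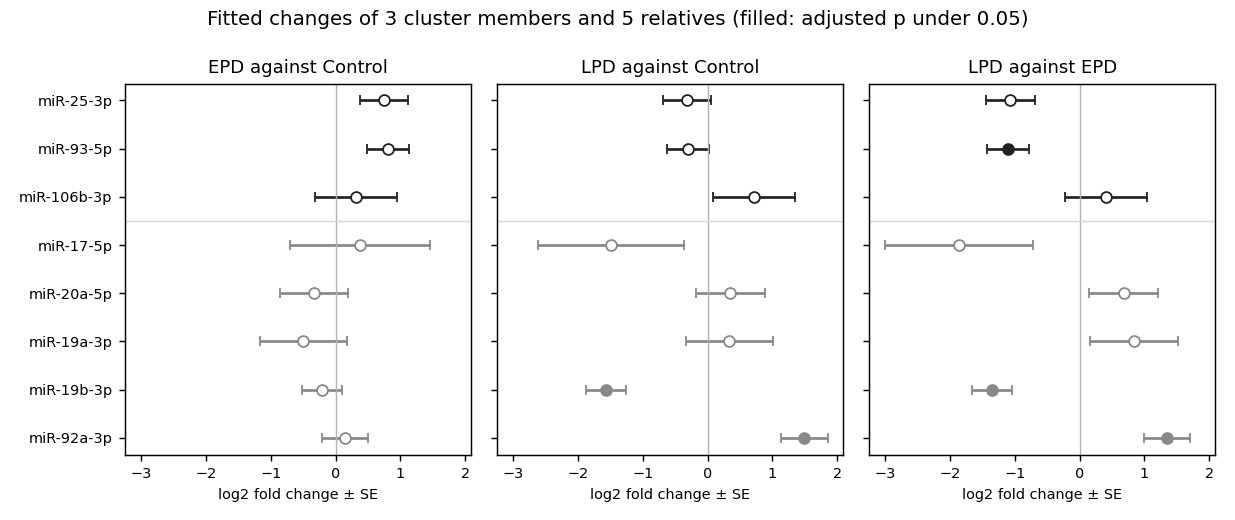
Points show fitted log2 fold changes with SE bars for 3 cluster members (black, above the line) and 5 relatives (grey), 1 panel per comparison; filled points have an adjusted p under 0.05. miR-93-5p is filled in LPD against EPD only, and miR-19b-3p and miR-92a-3p are filled in both LPD panels with opposite signs.

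Set against these relatives, the cluster's counts gave ratios that did not overlap between any of the 3 groups. The ratio of the 6 members' counts to those of the 14 relatives was 3.49, 3.51 and 3.59 in Control, 7.22, 6.07 and 4.86 in EPD, and 1.98, 1.67 and 1.90 in LPD. Each of the 3 differences had an exact permutation p of 0.1, the smallest possible, and this ratio was an alternative to the share of counts. In EPD the ratio averaged 6.05 ± 1.18 against 3.53 ± 0.05 in Control (SD, n = 3), and 5.47 with EPD 1 left out. The lower ratio in LPD rested on miR-92a-3p. When that miRNA was left out of the relatives, a choice made after seeing the data, the ratio was 6.29, 5.91 and 5.69 in Control, 13.5, 11.5 and 9.03 in EPD, and 6.96, 12.2 and 4.47 in LPD. EPD then still lay above Control (exact permutation p = 0.1), while LPD overlapped both groups (exact permutation p = 0.7 against Control and 0.3 against EPD).

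Within the AUUGCAC seed family the balance between miR-25-3p and miR-92a-3p followed the same order, and this pair was chosen after its values were seen and is given without a test. miR-25-3p exceeded miR-92a-3p by 4.92, 5.11 and 5.48-fold in Control, 9.45, 7.12 and 5.97-fold in EPD, and 1.76, 1.02 and 1.94-fold in LPD. All EPD ratios lay above and all LPD ratios below those of Control. miR-25-3p held 82.9 ± 0.76% of that family, by counts, among controls, 87.4 ± 2.47% in EPD and 58.5 ± 6.87% in LPD (SD, n = 3). In the LPD libraries miR-25-3p stood on an estimated 94.2, 37.7 and 82.9 molecules, from 3454, 1849 and 1022 counts. miR-92a-3p had fewer counts there (1959, 1806 and 527), which limits the ratio further. The ratio is still better resolved in LPD than the arm ratios. The estimate assumes the mean profile of Control and EPD, in which miR-92a-3p was lower.

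**Figure D5:**
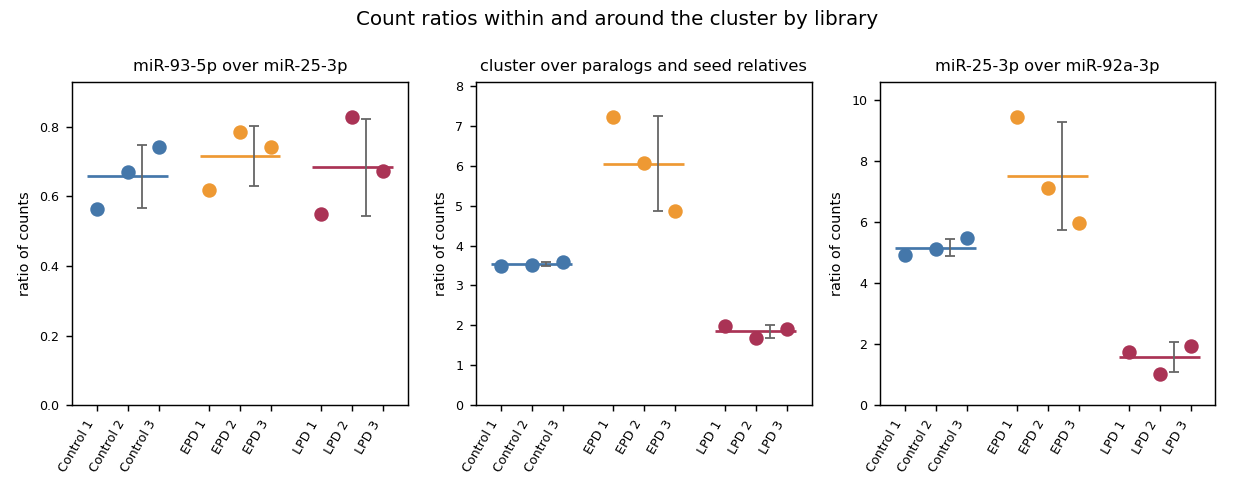
Count ratios by library are shown on linear axes that start at 0, with group means as lines and the SD over n = 3 as grey bars: miR-93-5p over miR-25-3p, the 6 members over the 14 relatives, and miR-25-3p over miR-92a-3p. The first ratio overlaps between the groups, and the other 2 are highest in EPD and lowest in LPD.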

How the data were processed

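The authors deposited whole-number read counts per mature miRNA, with 567 miRNAs in each of 9 libraries, and 0 values of the series matrix differed from the single files. Per the labels' protocols, serum RNA came from a miRNeasy kit and QIAseq miRNA libraries were sequenced. The submitters' processing notes name mRatBN7.2 as the build. Not given in the sources used here were the aligner, the counter, the miRNA annotation and whether molecular identifiers were collapsed. Groups and replicate numbers came from the sample titles. No label says that the samples of a group came from separate animals in so many words, so the p-values reflect only how far these samples spread, which may be technical. The members, lists and tests were chosen with earlier results of these data known.

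miRNAs were kept with filterByExpr (at least 10 counts, at least 15 in total), scaled by TMM and fitted over all 3 groups with the robust quasi-likelihood model of edgeR 4.0.16 in R 4.3.3, with Benjamini-Hochberg adjustment over 294 miRNAs and a threshold of 0.05. DESeq2 1.42.0 and limma 3.58.1 served as alternatives. Ratios and shares were compared by exact permutation of libraries. Standard errors came from the same fit. The named miRNAs were the 6 members, the 14 relatives, the 3 nearest profiles of each member with counts in all 9 libraries, and the references miR-451-5p, miR-16-5p, miR-23a-3p and miR-122-5p. The estimated molecules of a library were the number that, drawn from the mean profile of Control and EPD, leaves as many miRNAs unseen as were unseen. The fit was tested on simulated data in which LPD had the mean depth of the other libraries. That test therefore does not cover the low depth of LPD. Sequences came from the RefSeq table for GRCr8. PCR reads are not independent molecules, so intervals cover only the counting error of reads and are too narrow where few molecules were read many times. Other alternatives were library totals, other filters, 2-group fits, counts per molecule, scaling without miR-122-5p, the replicate number as a block and leaving out each library.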

Additional observations from a re-analysis of the deposited data

How the results depend on the processing

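Replicate numbers did not pair the libraries: same-numbered libraries of 2 groups had deviations correlated between -0.10 and 0.08. With the replicate block 4 members were called in LPD against EPD, miR-25-3p being added at -0.999 (adjusted p = 0.0439), and the member counts in the other comparisons were as before.

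Members called in EPD against Control numbered 0 in all 18 alternatives. In LPD against Control, 2 became 0 when only miRNAs counted in every library entered (3 members) and 0 on counts per molecule. It became 1 in a 2-group fit, where 5 members were tested and miR-106b-5p was filtered out. With a library left out it was 2 to 3. In LPD against EPD, 3 became 0 among miRNAs counted in every library and on counts per molecule, with 2 to 4 when a library was left out. It became 2, each time by the loss of miR-93-5p, with DESeq2, limma-voom, library totals, the 2-group fit and scaling without miR-122-5p. Among all miRNAs, 0 called in EPD against Control became 1 with DESeq2, 1 among miRNAs counted in every library, and 0 to 1 with a library left out. In LPD against Control 109 became 38, 52 and 31 among miRNAs counted in every library, in the 2-group fit and on counts per molecule (93 to 140 with a library left out). In LPD against EPD 108 became 35, 67 and 29 (90 to 134). The fits over miRNAs counted in every library and over 2 groups hold fewer miRNAs or samples. Counts per molecule instead divide the counts themselves, by up to 49.1 in LPD, with 263 miRNAs, all 9 libraries and all 6 members in the fit. The cause was not tested.

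On counts per molecule the LPD differences in log2 arm ratio from Control and EPD turned to -2.00 and -2.32 for miR-25, 0.75 and 1.13 for miR-93, and -0.15 and -0.28 for miR-106b, by the larger weight of the added 0.5. Leaving out a library, the arm ratio of miR-106b in EPD against Control ranged from -0.12 to 0.31, and the cluster's share in LPD against Control from -0.614 to 0.0175 percentage points. Relative to the relatives without miR-92a-3p it was 1.92 higher in LPD than in Control.

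Log2 changes near 0 turned as well. With a library left out, LPD against Control ranged from -0.365 to 0.0476 for miR-25-3p and from -0.403 to 0.0971 for miR-93-5p, both highest without LPD 3. miR-106b-3p ranged from -0.325 (without EPD 1) to 0.586 in EPD against Control and from -0.237 (without LPD 2) to 1.277 in LPD against EPD. miR-106b-5p in EPD against Control (-0.01) was 0.13 without a filter, 0.0301 with limma-voom, 0.0711 in the 2-group fit, 0.0945 without miR-122-5p in the scaling, and -0.256 to 0.206 with a library left out. Depth limits every statement on the lesser arms in LPD.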
